A study of Mus musculus with 6 samples.

Results

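The genes described here encode the IKK and TAK1 kinase complexes and the proteins that feed them: Chuk, Ikbkb, Ikbkg, Map3k7, Tab1, Tab2, Tab3, Map3k14, Ripk1 and Malt1. They were taken by symbol from the authors' deposited table, where all 10 were found among 15982 rows, each on 1 row. The study compared primary mouse bone marrow-derived macrophages from control mice (Ctrl, 3 libraries) with those from mice whose myeloid cells lack Bub1, a kinase of the mitotic checkpoint (Bub1 cKO, 3 libraries). Both groups were cultured alike. For 3 days they had M-CSF (20 ng/ml), on which macrophages grow, and for 2 more days M-CSF (20 ng/ml) together with RANKL (50 ng/ml), the cytokine that drives their precursors towards osteoclasts. RNA was sequenced from the 3' ends of transcripts with a QuantSeq kit. The sources used here give neither the Cre driver nor the strain, age and sex of the mice, nor whether the 3 libraries of a group came from separate animals, so the p-values cover only how far these libraries varied, which can be technical variation. The series title names NF-κB and inflammatory arthritis, and the comparison of these genes asks whether the transcripts of the kinases upstream of NF-κB differed between the genotypes.

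As background, NF-κB proteins are held in the cytoplasm by IκB inhibitors until the IKK complex phosphorylates the inhibitor and marks it for destruction. IKK consists of the kinases IKK alpha (Chuk) and IKK beta (Ikbkb) and the scaffold NEMO (Ikbkg). When RANKL, TNF or a Toll-like receptor ligand binds its receptor, ubiquitin chains are built on TRAF proteins or on RIPK1, and TAB2 or TAB3 bind these chains and bring in TAK1 (Map3k7), which phosphorylates IKK beta and also starts the JNK and p38 cascades. The noncanonical branch runs through NIK (Map3k14), which phosphorylates IKK alpha. These complexes are controlled mainly by phosphorylation, ubiquitin chains and protein turnover, which RNA levels do not measure.

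The authors' deposited table gives 1 expression value per gene and genotype, in TPM (reads scaled by transcript length and then to a common total), with no value per library, so no SD can be given and whether the libraries of the groups overlap cannot be seen. It also gives a statistic with a standard error. The statistic times the standard error was taken as the log2 change that the authors' test itself estimated, with a 95% interval of 1.96 standard errors, and is called the test's own log2 change. It differs from the deposited log2 change, which is computed from the group values with 1 TPM added to each. A gene was called at an adjusted p under 0.05 over all genes.

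None of the 10 genes was called in the authors' deposited table, where 29 of 15982 genes (0.181%) were. At an unadjusted p under 0.05 the count was also 0 of 10, beside 769 genes (4.81%) in the authors' deposited table. Of the 10 genes 3 had a positive statistic (Ikbkg, Map3k7 and Map3k14) and 7 a negative one, and the adjusted p ran from 0.985 to 0.992 in the authors' deposited table. The median deposited log2 change of the 10 was -0.15 and the median of the test's own log2 change -0.08, beside -0.01 and -0.00 over all genes. These are descriptions with no test, and a p that misses the threshold does not show that the levels were equal.

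**Figure D1:**
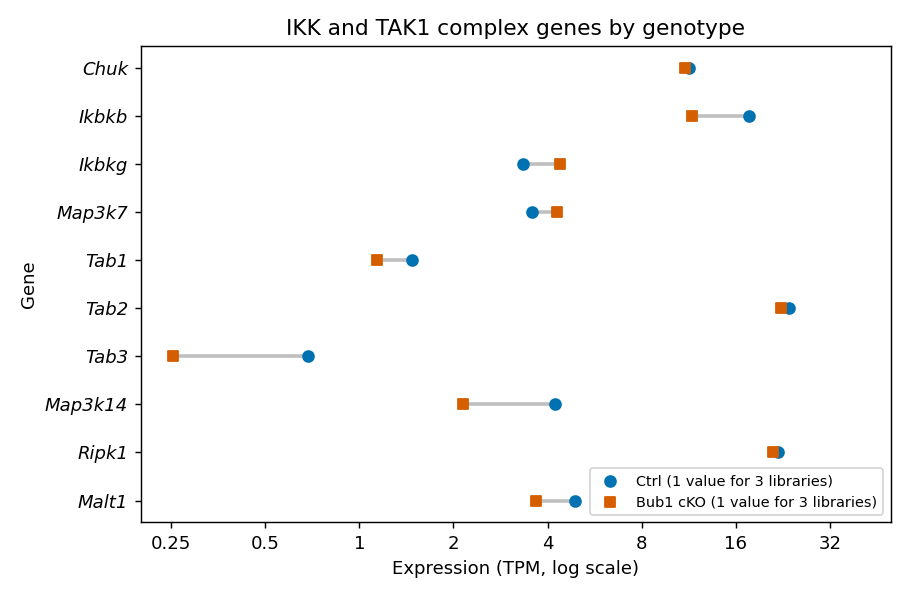
Expression of the 10 genes (TPM, log axis) in Ctrl (circles) and Bub1 cKO (squares), with 1 deposited value per genotype. No error bars are drawn because no value per library was given. Tab2, Ripk1, Ikbkb and Chuk lie above 11 TPM in both genotypes, and the widest gaps on this scale are those of Tab3 and Map3k14.

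The catalytic subunits of IKK were among the higher genes. Chuk (ENSMUSG00000025199.16; chromosome 19, 44073335 to 44107480, minus strand, GRCm38), the kinase IKK alpha, is listed in the authors' deposited table with 11.4 TPM for Ctrl and 11.0 TPM for Bub1 cKO. These values are nearly the same. The test's own log2 change was -0.06, with a 95% interval from -0.86 to 0.74; the authors' deposited table gives p = 0.992 after adjustment.

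Ikbkb (ENSMUSG00000031537.15; chromosome 8, 22659212 to 22706589, minus strand), the kinase IKK beta of the canonical pathway, is listed in the authors' deposited table with 17.6 TPM for Ctrl and 11.6 TPM for Bub1 cKO. The Bub1 cKO value is the lower one, at 0.658 of the Ctrl value. The deposited log2 change was -0.56, whereas the test's own was -0.14 with a 95% interval from -0.73 to 0.46, and the gene was not called; the authors' deposited table gives p = 0.985 after adjustment. The ratio of Ikbkb to Chuk was 1.55 in Ctrl and 1.05 in Bub1 cKO on the TPM scale. No spread can be given for this ratio.

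Ikbkg (ENSMUSG00000004221.16; chromosome X, 74393290 to 74453854, plus strand), which encodes the scaffold NEMO that joins IKK to ubiquitin chains, is listed in the authors' deposited table with 3.33 TPM for Ctrl and 4.39 TPM for Bub1 cKO. It had the highest statistic of the 10, 1.20, with a test's own log2 change of 0.48 and a 95% interval from -0.31 to 1.27; the authors' deposited table gives p = 0.985 after adjustment. Ikbkg shares 19712 bases with G6pdx on the opposite strand, a gene of the pentose phosphate pathway that the authors' deposited table lists with 16.8 and 14.4 TPM. The sources used here do not say whether reads were counted by strand, so reads of the overlapping stretch cannot be told apart with certainty. G6pdx was named for this overlap.

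Of the genes of the TAK1 complex Tab2 had the highest TPM in both genotypes. Map3k7 (ENSMUSG00000028284.13; chromosome 4, 31964097 to 32023467, plus strand), the kinase TAK1 itself, is listed in the authors' deposited table with 3.56 TPM for Ctrl and 4.30 TPM for Bub1 cKO. Its test's own log2 change was 0.27, with a 95% interval from -0.63 to 1.18; the authors' deposited table gives p = 0.985 after adjustment.

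Tab1 (ENSMUSG00000022414.8; chromosome 15, 80133127 to 80161707, plus strand), whose protein binds TAK1 and promotes its autophosphorylation, is listed in the authors' deposited table with 1.48 TPM for Ctrl and 1.14 TPM for Bub1 cKO. Its 95% interval, from -2.31 to 1.54 on the log2 scale, leaves room for large changes either way. The ratio of Tab1 to Map3k7 was 0.415 in Ctrl and 0.265 in Bub1 cKO.

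Tab2 (ENSMUSG00000015755.16; chromosome 10, 7905653 to 7956230, minus strand), an adaptor that reads ubiquitin chains, was the highest of the 10 genes, listed in the authors' deposited table with 23.7 TPM for Ctrl and 22.4 TPM for Bub1 cKO. It was also the most precisely measured of them. Its test's own log2 change was -0.08, with a 95% interval from -0.46 to 0.30, which as a fold of Ctrl runs from 0.727 to 1.24; the authors' deposited table gives p = 0.985 after adjustment.

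Tab3 (ENSMUSG00000035476.9; chromosome X, 85574022 to 85634469, plus strand), a close relative of Tab2, was the lowest of the 10, listed in the authors' deposited table with 0.684 TPM for Ctrl and 0.254 TPM for Bub1 cKO. With a standard error of 3.18 its 95% interval spans -7.72 to 4.76 on the log2 scale, and nothing can be read from the gap between the groups. The ratio of Tab2 to Tab3, 34.7 in Ctrl and 88.1 in Bub1 cKO, rests on these low Tab3 values.

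Map3k14 (ENSMUSG00000020941.7; chromosome 11, 103219762 to 103267472, minus strand), the kinase NIK of the noncanonical branch, is listed in the authors' deposited table with 4.23 TPM for Ctrl and 2.15 TPM for Bub1 cKO. The Bub1 cKO value is 0.508 of the Ctrl value, the lowest such ratio among the 9 members with a mean of at least 1 TPM. Its statistic in the authors' deposited table had the opposite sign, 0.17: the deposited log2 change was -0.73 and the test's own 0.11, with a 95% interval from -1.17 to 1.39; the authors' deposited table gives p = 0.987 after adjustment. No direction can therefore be given for Map3k14. At its 5' end Map3k14 shares 2613 bases with 1700028N14Rik, a noncoding gene on the same strand, whose part in these values was not tested.

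Ripk1 (ENSMUSG00000021408.15; chromosome 13, 34002363 to 34037147, plus strand), a kinase and scaffold below the TNF receptor that can also start cell death, is listed in the authors' deposited table with 21.9 TPM for Ctrl and 21.0 TPM for Bub1 cKO. The values lie close together, and the test's own log2 change was -0.09 with a 95% interval from -0.67 to 0.49; the authors' deposited table gives p = 0.985 after adjustment. A processed pseudogene on the same strand, Gm17084, shares 511 bases with Ripk1 and is listed in the authors' deposited table with 0.840 and 6.93 TPM (adjusted p = 0.985). It was named for this overlap, and how reads were divided between it and Ripk1 is uncertain. At its 5' end Ripk1 shares 432 bases with Serpinb6a on the opposite strand, a serpin gene that the authors' deposited table lists with 106 and 92.8 TPM.

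Malt1 (ENSMUSG00000032688.8), a protease and scaffold that links CARD and BCL10 proteins to IKK, is listed in the authors' deposited table with 4.89 TPM for Ctrl and 3.68 TPM for Bub1 cKO. Of the 10 genes it had the smallest unadjusted p, 0.134, and a statistic of -1.50; the authors' deposited table gives p = 0.985 after adjustment. The test's own estimate was -0.67 on the log2 scale, and its 95% interval ran from -1.55 to 0.21.

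**Figure D2:**
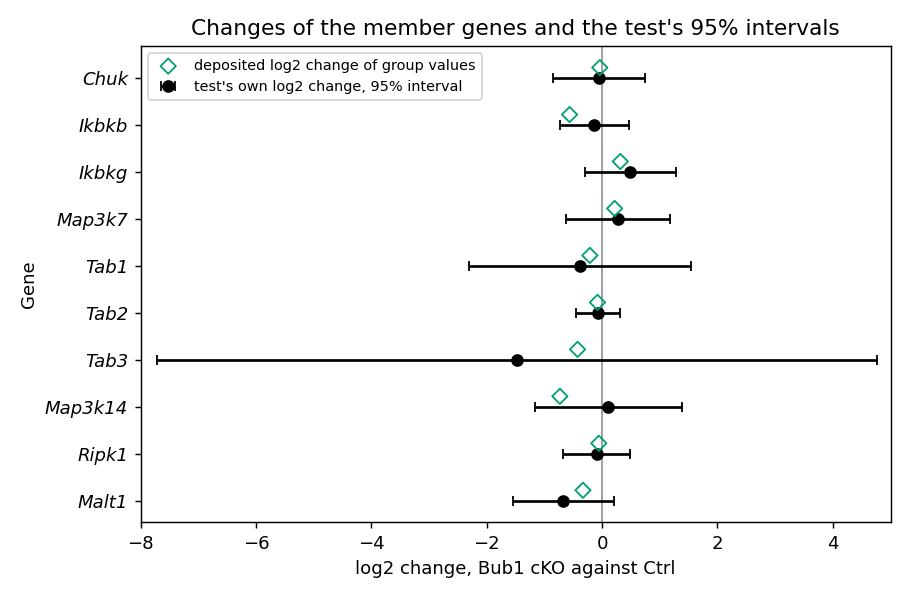
Changes of the 10 genes in Bub1 cKO against Ctrl on the log2 scale: filled points are the test's own log2 change with 95% intervals (1.96 standard errors), open diamonds the deposited log2 change of the group values. Every interval includes 0, that of Tab3 runs from -7.72 to 4.76, and for Map3k14 the diamond (-0.73) and the point (0.11) lie on opposite sides of 0.

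Ikbkb and Map3k14 were the only 2 of the 9 members with a mean of at least 1 TPM whose deposited and own log2 changes lay more than 1 standard error apart (1.40 and 1.29 standard errors). Among all 8320 genes with a mean of 1 to 30 TPM such a gap occurred in 10.5%, and opposite signs in 12.0%. What makes the group values and the test part in these genes was not tested, and their group values alone carry no direction.

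The order of the levels was alike in both genotypes at the top and the bottom. On the TPM scale Tab2, Ripk1, Ikbkb and Chuk took the first 4 places in both, and Tab1 and Tab3 the last. In Ctrl Malt1 was 5th, followed by Map3k14, Map3k7 and Ikbkg. In Bub1 cKO Ikbkg was 5th, followed by Map3k7, Malt1 and Map3k14. These 4 genes lie between 2.15 and 4.89 TPM, and without values per library their order was not tested. TPM divides by transcript length, whereas a 3' kit yields tags from the end of a transcript whatever its length, so that the values of genes with long transcripts are lowered against the others. The mean annotated transcript length of the members runs from 1323 bases (Tab1) to 2910 bases (Ikbkg).

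The precision set what could be called. The smallest statistic, in size, that reached an adjusted p under 0.05 in the authors' deposited table was 3.92. At the standard errors of the members this corresponds to a log2 change of 0.76 for Tab2 (1.70-fold), 1.16 for Ripk1 (2.24-fold), 1.19 for Ikbkb (2.28-fold), 1.58 for Ikbkg (2.99-fold) and 1.59 for Chuk (3.02-fold). Map3k7 and Malt1 would have needed 1.81 and 1.75, and Map3k14 2.55. For Tab1 the needed change was 3.84 and for Tab3 12.5, so these genes could hardly have been called. The standard errors of 9 of the 10 genes lay below the median of genes of like mean (within 1.5 times), Tab3 being the exception. For Tab2, with a standard error of 0.195, only 3.69% of the 1652 genes of like mean had a smaller one.

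**Figure D3:**
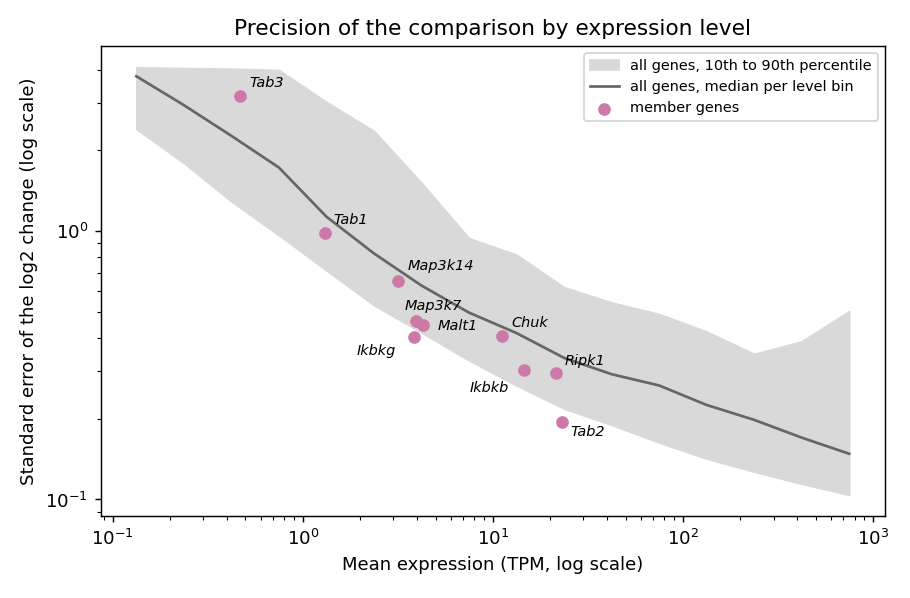
Standard error of the log2 change against mean expression (TPM), both on log axes: the line is the median of all genes per level bin, the band their 10th to 90th percentile, the points the 10 member genes. Tab2 (0.195) and Ikbkg (0.403) lie below the band and Tab3 (3.18) above the median line.

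The rest of the pathway was described with 10 gene lists, which hold 96 different genes, 94 of them found and 79 with a mean of at least 1 TPM. None of the 94 was called in the authors' deposited table. An unadjusted p under 0.05 was held by 8 of the 94 (5 with a positive and 3 with a negative statistic). This is a larger share than the 769 of 15982 (4.81%) over all genes. The difference was not tested, and the lists were chosen with earlier results of these data known. The sets are also unlike in level, since 79 of the 94 but 10881 of the 15982 had a mean of at least 1 TPM. Their statistics were positive in 45 and negative in 49, and the median deposited log2 change was -0.00. Named below are the 2 genes of each list with the smallest p among those with a mean of at least 1 TPM.

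Among receptors that feed these kinases (10 genes, 5 positive and 5 negative statistics), the authors' deposited table lists Tgfbr1, a TGF-β receptor kinase that can engage TAK1, with 8.49 and 12.9 TPM, and Tgfbr2, its partner, with 2.81 and 3.99 TPM for Ctrl and Bub1 cKO (adjusted p = 0.803 and 0.985). Adaptors and ubiquitin ligases next to the receptors (15 genes, 7 positive and 8 negative) included Xiap and Birc3, ubiquitin ligases of the IAP family, for which the authors' deposited table lists 18.9 and 23.8 TPM and 17.8 and 18.6 TPM. The statistic of Birc3 in the authors' deposited table was -1.82, opposite in sign to its group values, with a test's own log2 change of -0.65. In the CARD, BCL10 and RIPK2 list (9 genes found, 2 positive and 7 negative), the authors' deposited table lists Prkcd, a protein kinase C, with 29.9 and 20.0 TPM and Bcl10, the partner of MALT1, with 31.8 and 24.6 TPM (adjusted p = 0.861 and 0.985). These genes did not pass the threshold in either direction.

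Kinases related to IKK and their adaptors (6 genes, 3 positive and 3 negative) came next. The authors' deposited table lists Ikbke, the kinase IKK epsilon, with 2.14 and 0.773 TPM and the TBK1 adaptor Tbkbp1 with 6.30 and 7.88 TPM. Ikbke had an unadjusted p of 0.051 and an interval of 95% around the test's own estimate from -3.15 to 0.01 on the log2 scale. Of 13 other MAP3 kinases found, 5 had a positive and 8 a negative statistic. Map3k11, a kinase above JNK, has 4.48 and 1.57 TPM and Map3k2 has 1.07 and 1.76 TPM by the authors' deposited table (adjusted p = 0.448 and 0.985).

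Below TAK1, the 10 MAP kinase genes had 5 positive and 5 negative statistics. Map2k3, a kinase that activates p38, was listed with 56.7 TPM for Ctrl and 83.9 TPM for Bub1 cKO and had the smallest p of all 94 genes, 0.00078, or 0.211 after the adjustment in the authors' deposited table. Its test's own log2 change was 0.58, with a 95% interval from 0.24 to 0.93. Map2k4, a kinase that activates JNK, had 8.34 and 12.8 TPM beside a statistic of -1.24 by the authors' deposited table, so that its group values and its test point opposite ways.

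Below IKK, the 10 NF-κB and IκB genes had 5 positive and 5 negative statistics, and the authors' deposited table lists Relb, the noncanonical NF-κB subunit, with 8.15 and 4.43 TPM and Rel with 2.99 and 3.81 TPM (adjusted p = 0.985 for each). Among chaperones and negative regulators of IKK (11 genes, 7 positive and 4 negative), Cyld, a deubiquitinase that removes the chains that recruit TAK1 and IKK, had 18.8 and 10.2 TPM, and Hsp90aa1, a chaperone on which IKK and RIPK1 depend, had 2509 and 3280 TPM by the authors' deposited table (adjusted p = 0.277 and 0.576). The MALT1 protease substrates (9 genes, 3 positive and 6 negative) include the same Cyld and Relb. Of the 6 partners of RIPK1 in cell death, 4 had a positive statistic, and the authors' deposited table lists Fadd with 1.19 and 2.42 TPM and Casp8 with 29.1 and 31.6 TPM.

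**Figure D4:**
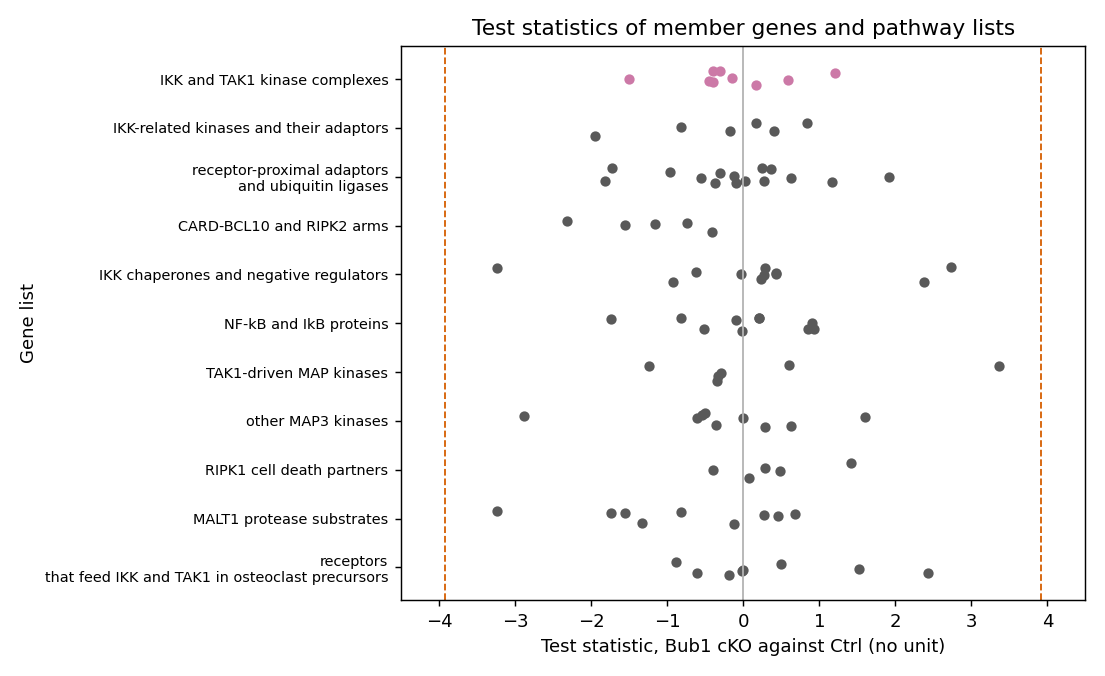
Test statistics (Bub1 cKO against Ctrl) of the members and of the 10 pathway lists, 1 point per gene with a mean of at least 1 TPM, spread vertically for legibility. The sign is that of the test's own log2 change, which for some genes, such as Map3k14 and Map2k4, is opposite to that of the group values. Dashed lines mark 3.92, the smallest size called at an adjusted p under 0.05; no point lies beyond them, the members lie between -1.50 and 1.20, and the outermost points are Map2k3 (3.36) and Cyld (-3.24).

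The targeted gene and markers of the cell types in the cultures were looked up beside these values. Bub1 is listed in the authors' deposited table with 6.73 TPM for Ctrl and 5.32 TPM for Bub1 cKO (adjusted p = 0.985); the sources used here do not name the deleted exons, so 3' tags do not check the labels. Bub1 is on chromosome 2, which carries none of the 10 genes. All 8 macrophage markers were found. By the authors' deposited table their levels summed to 2621 TPM for Ctrl and 1234 TPM for Bub1 cKO. Most of this was Lyz2 (2141 and 762 TPM), so the sums follow that gene. Lyz2 was the only one of the 8 called (adjusted p = 0.00033 by the authors' test). Of the 8, 6 had a negative and 2 a positive statistic, and Cd68 had 260 and 306 TPM. All 10 osteoclast markers were found, and by the authors' deposited table summed to 1987 and 2298 TPM. Mmp9 had the highest mean of them (688 and 657 TPM), but 8 of the 10 had a positive statistic, 5 of these with an unadjusted p under 0.05 and none called. Among those 5, chosen after their values were seen, the authors' deposited table lists Nfatc1 with 48.7 and 73.3 TPM (adjusted p = 0.094), Ocstamp with 11.1 and 22.1 TPM and Ctsk with 537 and 696 TPM. The 6 erythroid markers found summed by the authors' deposited table to 19.6 and 358 TPM, and all had a positive statistic. Hba-a2 was the highest by mean (8.83 and 169 TPM) but was not called, and Alas2 and Slc4a1 were at 0 in Ctrl. By the authors' test 2 of the 6 were called, Hbb-bs (5.44 and 77.3 TPM) and Hbb-bt (1.01 and 31.8 TPM). The 9 neutrophil markers found summed by the authors' deposited table to 95.7 and 232 TPM, and all had a positive statistic. S100a9 was the highest by mean (38.0 and 115 TPM) but was not called, and Elane, Camp and Retnlg were at 0 in Ctrl. By the authors' test 1 of the 9 was called, Cxcr2 (2.59 and 10.9 TPM). The group values of Ltf (12.3 and 6.74 TPM) ran opposite to its statistic. B cell (2 found, highest Cd79b), T cell (6 found, highest Trac) and stromal markers (6 found, highest Col1a1) each summed to at most 7.06 TPM per genotype by the authors' deposited table. No B cell, T cell or stromal marker was called. The part of these cells in the members' values was not tested, and in bulk RNA fewer cells of a type and less RNA per cell cannot be told apart. For the X-linked members Ikbkg and Tab3, 4 Y-linked genes were looked up: the authors' deposited table lists Ddx3y with 8.77 and 11.7 TPM, Eif2s3y with 19.0 and 15.7 TPM, Uty with 12.1 and 12.3 TPM and Kdm5d with 2.00 and 2.13 TPM (adjusted p from 0.985 to 0.987).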

How the data were processed

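Per the labels' protocols, a QuantSeq 3' kit was used on 25 ng of RNA. The authors' deposited table names RaNA-seq, a web service, in its header; aligner, build, annotation, test and library depth: not given in the sources used here. Both deposited expression columns, which sum to 999891 and 999954, were read as TPM. For a check of this, genes listed only in Bub1 cKO that share the most frequent pair of statistic and standard error were taken. Among the 209 of them with 1 annotated transcript, the value followed transcript length (Spearman's rho -0.99, across genes), which CPM would not. The deposited log2 change equals log2((Bub1 cKO + 1)/(Ctrl + 1)) within 0.002 in all 15982 rows. The deposited statistic and standard error were used as scores of the authors' test, and in 15974 rows the deposited p-value is what a 2-sided normal test on that statistic gives (tolerance 0.001).

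The planned fit to libraries was replaced by the authors' adjusted p; group values carry no SD. Alternatives re-adjusted p (Benjamini-Hochberg, scipy 1.17.1, Python 3.11.15, tested on simulated data) or changed the pseudocount, the measure of change or the scaling. Positions come from GENCODE M21 (GRCm38), matched by gene ID (99.5% of rows); the build behind the table may differ. Members and lists were chosen with earlier results of these data known. Named are the members, Bub1, 2 genes per list with the smallest p at a mean of at least 1 TPM, and the highest marker per cell type. Added after the data were seen were G6pdx, Gm17084, Serpinb6a and 1700028N14Rik for overlap, and the Y-linked genes as a check. Markers at 0 in Ctrl, called markers, Cd68, Ltf and 3 osteoclast markers were also added then.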

Additional observations from a re-analysis of the deposited data

How the results depend on the processing

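The count of 0 called members was the same with p adjusted again over the 10881 genes whose mean reached 1 TPM (9 members tested, 37 genes called), over the 7991 genes above the median mean (7 members tested, 35 called), at an adjusted p under 0.1 and at an unadjusted p under 0.05. Adjustment cannot bring a p below its unadjusted value, and the lowest unadjusted p of the members was 0.134 by the authors' test. These settings could therefore not have given another count. The pathway lists also stayed at 0 calls over those 10881 genes, where the lowest adjusted p was 0.140, that of Map2k3 and Cyld. The median deposited log2 change of the members, -0.147, became -0.085 with the test's own log2 change, -0.073 with a pseudocount of 5, -0.217 with a pseudocount of 0.1 and -0.081 without Tab3; scaling the groups by their median ratio left it at -0.15. A change of pseudocount cannot turn the sign of a log2 change, so the pseudocounts say nothing of direction. With the test's own log2 change 9 of 10 members kept their sign. Map3k14 turned to 0.11, and the cause was not tested. With 1 TPM added to each value, the ratio of Ikbkb to Chuk was 1.51 in Ctrl and 1.05 in Bub1 cKO, that of Tab2 to Tab3 was 14.7 and 18.6, and that of Tab1 to Map3k7 was 0.544 and 0.403. No paired analysis was possible because the table holds 1 value per genotype and no columns per replicate, and for the same reason no library could be left out. Depth is unknown, and the standard errors limit what can be said of Tab1 and Tab3.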

Other observations

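Of the 79 genes of the pathway lists with a mean of at least 1 TPM, 19 (24.1%) had a statistic opposite in sign to their deposited log2 change, beside 12.0% of all genes with a mean of 1 to 30 TPM. A gap of more than 1 standard error between the deposited change and the test's own occurred in 9 of the 79 (11.4%), beside 10.5%. Neither difference was tested, and the sets are unlike because the 79 include genes with a mean above 30 TPM. The widest gaps, chosen after the values were seen, were those of Rc3h1, the RNA-binding protein Roquin and a substrate of MALT1, and of Map3k1, a kinase above JNK. Rc3h1 is listed in the authors' deposited table with 7.18 TPM for Ctrl and 2.23 TPM for Bub1 cKO, a deposited log2 change of -1.34 beside 0.19 from the test itself. Map3k1 has 4.90 and 9.64 TPM by the authors' deposited table, with 0.85 beside -0.21. These gaps were 3.66 and 3.13 standard errors, and what gave rise to them was not tested.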
